A study of Mus musculus with 8 samples.

Results

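Potassium, sodium and calcium channel genes, together with the TRP, Piezo and Hcn cation channels, were followed in RNA-seq of mouse molar mesenchyme. The genes were taken by symbol, with earlier results of these data known, and 133 of the 20926 genes in the table of values matched. They cover potassium channel pores and their auxiliary subunits (Kcn symbols), voltage-gated sodium channels (Scn), calcium channel pores and auxiliary subunits (Cacna1, Cacna2d, Cacnb and Cacng), the Trpa, Trpc, Trpm and Trpv channels, *Piezo1* and *Piezo2*, and the Hcn channels. By role, 32 were voltage-gated potassium channel pores, 19 TRP channels, 14 potassium channel auxiliary subunits, 13 calcium channel auxiliary subunits, 11 inward rectifiers, 9 calcium channel pores and 9 sodium channel pores. A further 8 were K2P (two-pore domain) potassium channels, 8 calcium- or sodium-activated potassium channel pores, 4 Hcn channels, 4 sodium channel beta subunits and 2 Piezo channels.

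These proteins are pores that let cations cross the membrane when the voltage, a ligand, temperature or mechanical force opens them, and auxiliary subunits that set the number and gating of the pores at the cell surface. Voltage-gated sodium channels carry action potentials in neurons and muscle, potassium channels set the resting potential and end excitation, and calcium channels couple voltage to secretion, contraction and transcription. In teeth, TRP and Piezo channels have been studied as sensors of cold and of force in odontoblasts and in the nerve endings that reach the pulp, and calcium entry accompanies mineralization of the matrix.

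The comparison asked how loss of *Ezh2*, the methyltransferase subunit of PRC2, alters expression in the molar mesenchyme. Both groups carried floxed *Ezh2* alleles and were C57BL/6 mice by the sample labels, taken at post natal day 3, and the study's methods describe a mixed background. Control libraries came from Ezh2fl/fl mice (n = 4) and cKO libraries from Osr2KI-Cre;Ezh2fl/fl mice (n = 4), in which Cre is expressed from *Osr2*. By the study's account, this Cre reaches dental mesenchyme and alveolar bone. Epithelial cells lie outside its reach. The epithelium was removed before RNA isolation. Whether a library held tissue of a single animal is not given in the sources used here, so p-values measure the spread between these libraries. Several libraries, among them a cKO library, held both *Xist* and the Y-linked *Ddx3y*, with values given at the end. The number and sex of the animals in each library were not tested.

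The deposited values are reads scaled to a common upper quartile, with no correction for gene length, and they behave as if 1 read had been added to every gene. Dividing a value by the smallest of its library and subtracting 1 gave estimated reads, 48.3 M to 68.8 M per library. Fold changes were tested with limma on log2(value + 1) in the genes that reached a value of 1 in 4 or more of the 8 libraries, and on this scale the change of a low gene comes out too small. Values of each group are given in the order of its libraries, 1 to 4. A gene was called at an adjusted p (Benjamini-Hochberg over all genes tested) under 0.05. Levels of different channel genes are compared only as the mean value of the 8 libraries per kilobase of exon. A gene that leads a marker sum below had the largest value in it, uncorrected for length.

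*Ezh2* values, a check of the labels, were 54.95, 38.3, 39.6 and 38.95 among controls and 35.2, 30.1, 23.2 and 36.01 among cKO libraries. All 4 cKO values lay under all 4 control values, with control library 1 well above the other 3 controls. The means were 42.9 ± 8.03 in control and 31.1 ± 5.92 in cKO molars (SD, n = 4 each), and the difference did not pass the adjusted threshold (log2 fold change -0.46, standard error 0.16, adjusted p = 0.235 by limma; unadjusted p = 0.0179). The values sum over the whole gene, so reads from exons outside the deleted part are included.

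Markers of the labelled tissue were present, with 9 of 10 dental mesenchyme genes tested and 1 below the filter. *Lhx8* was the member of that list that was called, at 9.87 ± 1.34 in control and 23.6 ± 4.28 in cKO molars (SD, n = 4 each). At an unadjusted p under 0.05, 4 of the 9 were higher and 0 lower, and *Lhx8*, *Prrx1* and *Twist1* had all cKO values above all control values. Epithelial transcripts were also present in every library although the epithelium had been removed. The summed values of the 9 epithelium and ameloblast markers, led by *Amelx*, were 2730, 4808, 19078 and 32700 among controls and 3963, 2725, 13783 and 2692 among cKO libraries. Control libraries 3 and 4 and cKO library 3 thus stood far above the other 5 libraries, and 0 of the 9 were called by limma, with 2 lower at an unadjusted p under 0.05. Results without these 3 libraries were computed as a setting chosen after the data were seen.

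Of the bone and periodontal ligament markers 2 of 6 were called (*Ibsp* and *Aspn*, both higher in cKO), with 3 higher and 0 lower at an unadjusted p under 0.05. Log2 fold changes were 0.0285 for *Sp7* and -0.40 for *Bglap*. The summed values, led by *Ibsp*, were 481, 730.1, 607 and 631 among controls and 1014, 945, 1217 and 995 among cKO libraries, with no overlap between the groups, and without *Ibsp* the sums overlapped. The 6 endothelial markers, led by *Cdh5*, summed to 328, 369, 365 and 361 among controls and 319, 314, 293 and 293 among cKO libraries. Their sums were lower in every cKO library than in every control library, although 0 of 6 were called by limma and 3 of 6 had an unadjusted p under 0.05. In bulk tissue, fewer cells of a type and less RNA per cell cannot be told apart, and the part of these cell types in the channel results was not tested.

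Lists for the excitable cells in which many of these channels act gave 0 called genes by limma, with 0 at an unadjusted p under 0.05 in each of the neuron, Schwann cell and skeletal muscle lists and 1, lower in cKO, for smooth muscle and pericytes. The 7 neuron markers, led by *Tubb3*, summed to 95.2, 115, 143 and 154 among controls and 115, 95.9, 113 and 106 among cKO libraries. Mean values of *Snap25*, *Prph* and *Nefl* were under 1. *Snap25*, a synaptic vesicle fusion protein, was untested for its low values, which were 0.104, 0.107, 0.0344 and 0.275 among controls and 0.455, 0.409, 0.339 and 0.336 among cKO libraries. Each cKO library lay above each control library for *Snap25*. Means of *Tubb3*, *Stmn2* and *Nefl* were lower in cKO libraries, with ratios of 0.847, 0.732 and 0.462, and their groups overlapped, as did the sum, nearly all of which was *Tubb3*. Ratios for *Prph*, *Rbfox3* and *Elavl4* were 1.25, 1.01 and 1.002. The 7 Schwann cell and nerve markers, led by *Pmp22*, summed to 299, 280.02, 204 and 264 among controls and 329.8, 311, 298 and 279 among cKO libraries, with *Sox10* and *Cdh19* under a mean of 1. Of 10 skeletal muscle markers 9 were in the table, and their sum, led by *Acta1*, was 57.8 in control library 4 and 6.96 to 17.6 in the other 7 libraries.

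The 8 smooth muscle and pericyte markers, led by *Notch3*, summed to 506, 550.2, 475 and 543 among controls and 432, 515, 449 and 445 among cKO libraries, and overlapped. Macrophage and osteoclast markers varied within both groups, with sums, led by *Ctsk*, of 325, 1307, 467 and 631 among controls and 753, 322, 1019 and 307 among cKO libraries. Control library 1 and cKO libraries 2 and 4 were the 3 lowest. By limma 0 of 7 of these were called, and 0 of the 4 red blood cell markers tested, with 0 at an unadjusted p under 0.05 in both lists. The 6 odontoblast markers, led by *Col1a1*, summed to 9349, 11490, 10983 and 9778 among controls and 7510, 9355, 8057 and 8088 among cKO libraries. Of these, 0 were called by limma, 1 was higher and 2 were lower at an unadjusted p under 0.05, and 5 had negative log2 fold changes. The 2 lower ones were *Dspp* (log2 fold change -1.13, standard error 0.41, adjusted p = 0.256 by limma) and *Phex* (log2 fold change -0.98, standard error 0.26, adjusted p = 0.1003 by limma), and both overlapped between groups through cKO library 3.

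Of the 133 channel genes, 90 got through that filter and were tested, 78 of them with a value of at least 1 in all 8 libraries and 0 through the libraries of a single group alone. In limma's test 10 genes were called higher in cKO molars (11.1% of the 90), where 1.56% of all 14854 genes tested were called higher. Of the 10, 7 had a value of at least 1 in all 8 libraries. Among the 10 were the sodium channel genes *Scn8a* and *Scn4b*, the calcium channel pore gene *Cacna1a*, and *Cacng5*, grouped here with the calcium channel auxiliary genes. Also among them were the potassium channel gene *Kcnn3*, the TRP channels *Trpa1* and *Trpm5*, and *Hcn2*. None was called lower (0 of 90, with 0.512% of all genes tested called lower). At an unadjusted p under 0.05, 31 channel genes were higher and 8 were lower, beside 8.27% and 4.87% of all genes tested.

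The median log2 fold change of the channel genes tested was 0.208, and 64 of 90 were positive, beside a median of 0.013 and 54.1% positive among all genes tested. Under median-of-ratios and quantile scaling the medians over the channel genes were 0.186 and 0.180, and over all genes -0.0087 and -0.0033. No role group changed the sign of its median under these scalings. All 4 cKO values lay above all 4 control values for 16 of the 90 channel genes (17.8%), beside 5.76% of all genes tested, and below them for 1, beside 2.77%. The count of called channel genes depended on which libraries were used. It was 5 without control library 3 or 4, 6 without cKO library 2 or 4, 7 without control library 2 and 8 without control library 1. In the same order, 108, 131, 138, 133, 133 and 191 of all genes tested were called higher, against 232 with all 8 libraries. Without cKO library 1, 17 channel genes were called, the 10 above and 7 more, among them *Piezo2* and *Trpc5*. There 332 of all genes tested were called higher. Without cKO library 3, 9 channel genes were called higher and 2 (*Cacna1e* and *Trpm7*) lower, beside 201 and 63 of all genes tested.

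In the 5 libraries with low enamel transcripts (control 1 and 2, cKO 1, 2 and 4), limma called 0 channel genes, beside 0.0539% of all 14854 genes called higher (8 genes) and 0 lower. At an unadjusted p under 0.05, 14 channel genes were higher and 7 lower, beside 4.08% and 3.0% of all genes tested. For the 10 genes above, log2 fold changes in those 5 libraries were 0.43 to 1.18. Each of the 10 had an unadjusted p under 0.05 there, and adjusted p-values of 0.193 to 0.456 by limma were the highest that any setting gave them. With all 8 libraries and the mean log2 level of the enamel genes *Amelx*, *Ambn* and *Enam* as covariate, limma called 10 channel genes, 9 of them among the 10 above, with *Hcn2* lost. Of all genes tested, 216 were called higher and 86 lower in that fit. In a separate fit, the covariate was the mean log2 level of the muscle markers. It left 5 of the 10 called, among them *Cacng5*, *Scn8a*, *Trpa1* and *Trpm5*, beside 104 higher and 39 lower of all genes tested. *Cacna1a*, *Hcn2*, *Kcnn3* and *Scn4b* had adjusted p-values of 0.0771 to 0.118 by limma there. Log2 fold changes in that fit were 0.49 for *Cacna1a*, 0.48 for *Hcn2* and 1.19 for *Kcnn3*, against 0.52, 0.46 and 1.34 without it. With the neuron markers as covariate, chosen after the data were seen, all 10 remained called and 2 more passed, *Cacng4* higher and *Cacna1b* lower. That fit called 289 higher and 130 lower of all genes tested. With a filter at a value of 10, which left 28 channel genes in the test, 9 of the 10 were not tested and 1 was called, with 8 higher and 1 lower at an unadjusted p under 0.05. Of all 10283 genes tested there, 0.856% were called higher, and 6.54% were higher and 4.68% lower at an unadjusted p under 0.05.

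**Figure D1:**
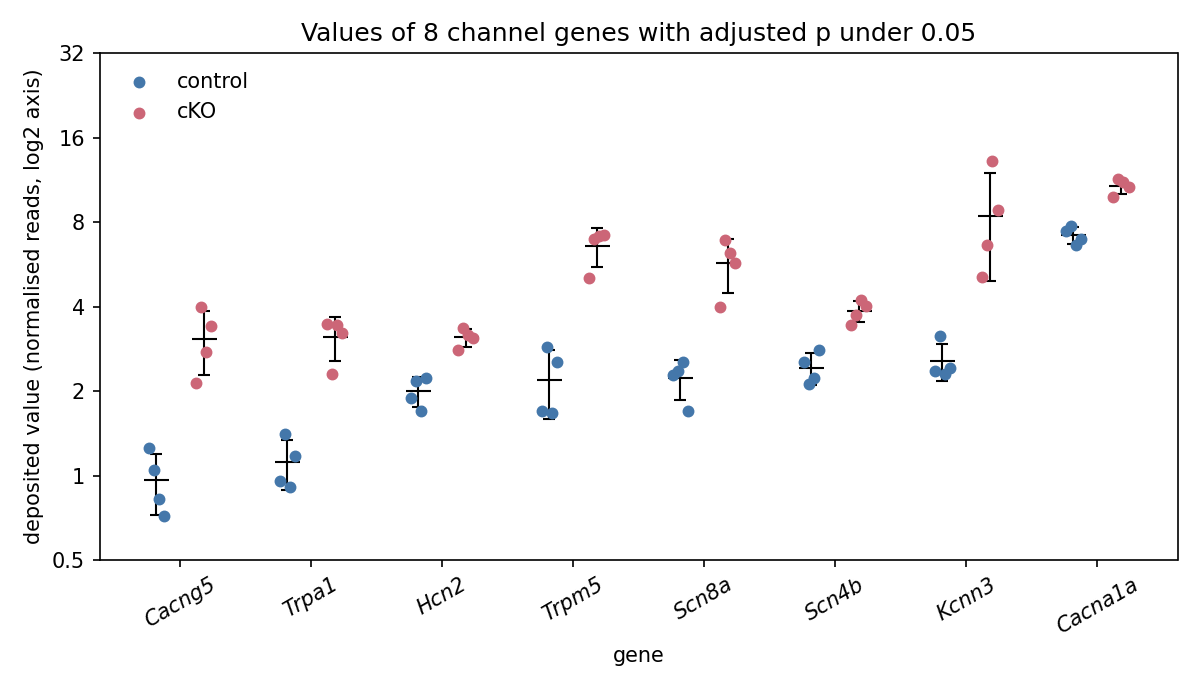
Deposited values (log2 axis) of 8 of the 10 channel genes with an adjusted p under 0.05 in each of the 4 control (blue) and 4 cKO (red) libraries, ordered by control mean, with bars for the mean and SD. For each gene the 4 cKO points lie above the 4 control points, from *Cacng5* (control mean 0.960) to *Cacna1a* (control mean 7.19).

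Sodium channel pores had low levels, 0.0150 to 0.631 per kilobase of exon, and 6 of the 9 were tested. All 6 had positive log2 fold changes (median 0.58), 4 had an unadjusted p under 0.05, and *Scn8a* was among those called. *Scn8a*, the sodium channel of axon initial segments and nodes of Ranvier, lies on chromosome 15 (plus strand, 100869858 to 101045938). Its values were 2.28, 2.36, 2.54 and 1.70 among controls and 3.98, 6.92, 6.22 and 5.73 among cKO libraries. Each cKO library stood above each control library, and cKO library 1 was the lowest of its group. With 110 to 175 in control and 209 to 455 in cKO libraries by estimated reads, the mean was 2.57-fold higher in cKO molars (log2 fold change 1.05, standard error 0.15, adjusted p = 0.00965 by limma). The call held with each library left out, with log2 fold changes of 0.96 to 1.18.

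*Scn9a*, a channel of nociceptors, had the highest level per length among the sodium channel pores (0.631 per kilobase). It had values of 10.2, 5.45, 5.13 and 4.29 among controls and 3.21, 13.1, 11.2 and 11.9 among cKO libraries. Control library 1 was high among the controls and cKO library 1 was the lowest of all 8, so the groups overlapped (log2 fold change 0.50, standard error 0.38, adjusted p = 0.697 by limma). For *Scn2a* the values were 2.86, 2.22, 2.20 and 1.91 among controls and 2.27, 3.25, 4.36 and 3.63 among cKO libraries. The lowest cKO library, number 1, fell inside the control range (log2 fold change 0.39, standard error 0.16, adjusted p = 0.317 by limma; exact permutation p = 0.0571). *Scn3a* and *Scn2a*, and *Scn1a*, *Scn9a* and *Scn7a*, form runs of neighbours on chromosome 2 with gaps of 38.5 to 53.1 kilobases, and none of the 4 tested was called with all 8 libraries. *Scn7a* was left out by the filter, and *Scn1a* was called without cKO library 1.

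Of the 4 sodium channel beta subunits, which attach to the pores and modify their gating, 3 were tested, all with positive log2 fold changes (median 0.34). *Scn4b*, on chromosome 9 (plus strand, 45138395 to 45154152), had values of 2.54, 2.12, 2.22 and 2.80 among controls and 3.45, 3.72, 4.22 and 4.001 among cKO libraries. The lowest cKO value, 3.45, was above the highest control value, 2.80. The mean was 1.59-fold higher (log2 fold change 0.51, standard error 0.10, adjusted p = 0.0388 by limma). The call was lost without each library other than cKO 1 (adjusted p 0.0533 to 0.159 by limma), and also without a filter and under quantile scaling. *Scn2b*, which lies 8.32 kilobases from *Scn4b*, had the highest level of the beta subunits (1.84 per kilobase), with values of 10.5, 7.07, 7.07 and 4.77 among controls and 7.15, 13.8, 5.77 and 12.4 among cKO libraries. Its groups overlapped, with the highest values in control library 1 and cKO libraries 2 and 4 (log2 fold change 0.34, standard error 0.28, adjusted p = 0.731 by limma).

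Calcium channel pores spanned levels of 0.0278 to 14.7 per kilobase, and 8 of 9 were tested, 5 with positive and 3 with negative log2 fold changes (median 0.21). *Cacna1a*, the P/Q-type pore of presynaptic terminals, was the gene called, and at an unadjusted p under 0.05 there were 2 higher and 2 lower. The lower ones, *Cacna1e* (log2 fold change -0.70, standard error 0.20, adjusted p = 0.143 by limma) and *Cacna1b* (log2 fold change -0.42, standard error 0.13, adjusted p = 0.169 by limma), overlapped between groups. *Cacna1a* lies on chromosome 8 (plus strand, 84388440 to 84640246) and overlaps *Gm16183* on the opposite strand, and whether counting used strand is not given in the sources used here. Values of *Cacna1a* were 7.43, 7.74, 6.62 and 6.99 among controls and 9.81, 11.3, 11.1 and 10.7 among cKO libraries. The groups were apart, and both were tight. Means were 7.19 ± 0.492 in control and 10.7 ± 0.675 in cKO molars (SD, n = 4 each), a 1.49-fold difference (log2 fold change 0.52, standard error 0.0871, adjusted p = 0.0174 by limma). Leaving out a library ended the call for control 3 (0.0820), control 4 (0.0592), cKO 2 (0.0544) and cKO 4 (0.0620), adjusted p by limma in parentheses.

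The highest calcium channel pores per length were *Cacna1g*, *Cacna1c* and *Cacna1h*, with 14.7, 5.59 and 4.40 per kilobase. *Cacna1h*, a T-type pore that overlaps *Tpsg1* on the opposite strand, had values of 49.04, 23.8, 20.2 and 16.99 among controls and 30.7, 87.5, 54.1 and 61.1 among cKO libraries. Control library 1 reached 49.04, above cKO library 1, so the groups overlapped although the mean ratio was 2.12 (log2 fold change 1.09, standard error 0.36, adjusted p = 0.208 by limma; unadjusted p = 0.0139). *Cacna1c*, the L-type pore of heart and smooth muscle, had values of 134, 91.5, 85.5 and 82.8 among controls and 69.7, 185, 161 and 137 among cKO libraries. As with *Cacna1h*, control library 1 was the highest control and cKO library 1 the lowest of its group, here the lowest of all 8 (log2 fold change 0.42, standard error 0.28, adjusted p = 0.627 by limma). *Cacna1g*, the other T-type pore in this trio, had means of 133 ± 18.9 in control and 164 ± 31.9 in cKO molars (SD, n = 4 each) and overlapping groups (log2 fold change 0.28, standard error 0.15, adjusted p = 0.482 by limma).

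Among the 13 calcium channel auxiliary genes, 10 were tested, all 10 with positive log2 fold changes (median 0.28; 9 of 10 positive under quantile scaling), and 5 had an unadjusted p under 0.05. *Cacng5*, a transmembrane regulator of AMPA-type glutamate receptors, was called. It lies on chromosome 11 (minus strand, 107874605 to 107915055), with no overlapping gene annotated. Its values were 1.25, 1.05, 0.825 and 0.719 among controls and 2.14, 3.97, 2.76 and 3.42 among cKO libraries. All cKO libraries were above all control libraries, and cKO library 1 was the lowest of the 4. The mean was 3.20-fold higher (log2 fold change 1.04, standard error 0.16, adjusted p = 0.00996 by limma), on 46 to 77 in control and 112 to 264 in cKO libraries by estimated reads. With each library left out the log2 fold change was 0.94 to 1.16, and limma called it each time. The call was lost with replicate number as a block in the fit.

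*Cacng4*, another of the Cacng genes, lies 80.0 kilobases from *Cacng5* and overlaps *Gm11650* on the opposite strand. Values of *Cacng4* were 25.5, 25.7, 23.3 and 24.3 among controls and 44.8, 42.8, 27.5 and 42.5 among cKO libraries. The controls were nearly level, and cKO library 3 lay close to them while the other 3 cKO libraries were well above. The groups did not overlap, and the difference stayed above the adjusted threshold (log2 fold change 0.63, standard error 0.14, adjusted p = 0.0623 by limma; exact permutation p = 0.0286, the smallest that 4 against 4 allow). Without cKO library 3 it was called, with an adjusted p of 0.00240 by limma, and over the libraries left out in turn the adjusted p reached 0.202. *Cacng7* (22.6 per kilobase) and the beta subunit gene *Cacnb3* (15.4 per kilobase) had the highest levels of the auxiliary genes. Their means were 51.1 ± 7.02 in control and 59.4 ± 7.13 in cKO molars (SD, n = 4 each) and 58.3 ± 2.13 in control and 65.1 ± 9.17 in cKO molars (SD, n = 4 each), with overlapping groups for both.

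Voltage-gated potassium channel pores formed the largest group, and 18 of 32 were tested. Of these, 11 had positive and 7 negative log2 fold changes (median 0.20; 10 positive under quantile scaling), with 6 higher and 2 lower at an unadjusted p under 0.05. *Kcnh1*, an ether-a-go-go channel, had the highest level of the group, 5.37 per kilobase, and overlaps *Hhat* on the opposite strand. It had values of 23.6, 34.8, 52.2 and 66.4 among controls and 39.8, 23.2, 54.8 and 20.3 among cKO libraries. The high values fell in control libraries 3 and 4 and cKO library 3, the libraries with the highest enamel transcripts, and the groups overlapped (log2 fold change -0.36, standard error 0.37, adjusted p = 0.806 by limma). With the enamel genes as covariate, its log2 fold change was 0.16. *Kcnf1*, a silent subunit that modifies other pores, had 4.08 per kilobase and means of 21.6 ± 3.03 in control and 17.5 ± 4.004 in cKO molars (SD, n = 4 each, log2 fold change -0.30, standard error 0.15, adjusted p = 0.466 by limma). The cKO values of *Kcnf1* were 23.4, 14.8, 15.6 and 16.02, so library 1 stood apart within its group and inside the control range.

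Auxiliary subunits of potassium channels had no called gene. In limma's test 9 of 14 were tested, with 0 called, 1 higher and 0 lower at an unadjusted p under 0.05, and a median log2 fold change of 0.10. *Kcnip4*, a calcium-binding partner of Kv4 channels, had values of 7.08, 7.25, 7.22 and 6.45 among controls and 7.88, 9.73, 8.43 and 7.57 among cKO libraries. The groups were apart by a small margin, and the difference did not pass the adjusted threshold (log2 fold change 0.23, standard error 0.10, adjusted p = 0.345 by limma; unadjusted p = 0.0409). The *Kcnip4* gene holds many annotated genes on both strands within its span, so its reads are uncertain. *Kcne3* (4.18 per kilobase) and *Kcnip3* (2.999 per kilobase) were the highest of the group, with means of 7.07 ± 0.634 in control and 7.79 ± 1.79 in cKO molars (SD, n = 4 each) and 10.01 ± 0.712 in control and 11.3 ± 0.401 in cKO molars (SD, n = 4 each).

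Among calcium- and sodium-activated potassium channel pores, 7 of 8 were tested, 5 with positive log2 fold changes, and *Kcnn3* was called, with 1 higher and 1 lower at an unadjusted p under 0.05. The lower one, *Kcnn4*, had the most negative log2 fold change of the 90 channel genes tested and overlapping groups (log2 fold change -0.76, standard error 0.30, adjusted p = 0.311 by limma). *Kcnn3* encodes a small-conductance calcium-activated channel and lies on chromosome 3 (plus strand, 89520164 to 89675132). Values of *Kcnn3* were 2.36, 3.14, 2.30 and 2.42 among controls and 5.10, 6.64, 13.2 and 8.84 among cKO libraries. Controls lay within a narrow range, while the cKO libraries spread from 5.10 in library 1 to 13.2 in library 3 without reaching the controls. Its ratio of means, 3.30, was the largest of the 10 called genes (log2 fold change 1.34, standard error 0.23, adjusted p = 0.0184 by limma). The call ended without control 3 (0.0727), control 4 (0.0588) and cKO 4 (0.0623), adjusted p by limma in parentheses, while log2 fold changes were 1.12 to 1.53.

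*Kcnt2*, a sodium-activated channel, had the highest level of these pores, 2.46 per kilobase, and values of 22.1, 13.7, 10.2 and 10.5 among controls and 12.4, 25.6, 18.4 and 22.5 among cKO libraries. Control library 1 and cKO libraries 2, 3 and 4 were the high ones, and cKO library 1 lay within the control range (log2 fold change 0.48, standard error 0.27, adjusted p = 0.523 by limma). The small-conductance genes *Kcnn1* and *Kcnn2* followed at 1.14 and 0.909 per kilobase, with means of 4.85 ± 0.490 in control and 5.60 ± 1.06 in cKO molars (SD, n = 4 each) and 6.79 ± 1.84 in control and 6.78 ± 1.78 in cKO molars (SD, n = 4 each). Both overlapped between groups.

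Inward rectifiers, which hold the resting potential near that of potassium, had no called gene by limma among the 5 of 11 tested, and 0 at an unadjusted p under 0.05 (median -0.0320). *Kcnj8*, the pore of a vascular ATP-sensitive channel, had the highest level per length of all 133 genes, 50.8 per kilobase. Its values were 142, 137, 120.03 and 123 among controls and 103, 141, 131 and 137 among cKO libraries. The lowest and next-highest values both belonged to cKO libraries, and the means differed by less than the spread (log2 fold change -0.0320, standard error 0.11, adjusted p = 0.954 by limma). *Kcnj2* had values of 8.22, 18.8, 16.4 and 22.1 among controls and 17.6, 7.86, 26.8 and 10.3 among cKO libraries. Its 3 lowest libraries, control 1 and cKO 2 and 4, were also the 3 lowest for the macrophage and osteoclast markers, whose part in these values was not tested (log2 fold change -0.12, standard error 0.38, adjusted p = 0.950 by limma). The same 3 libraries had the lowest values of *Kcnj15*, with 14.1 in control 1, 18.8 in cKO 2 and 19.2 in cKO 4, against 20.1 to 28.96 in the other 5.

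K2P channels, which carry background potassium current, were tested for 5 of 8 genes, with 0 called by limma, 1 higher and 0 lower at an unadjusted p under 0.05. Here 4 of 5 log2 fold changes were negative (median -0.21). *Kcnk1* came next after *Kcnj8* by level, at 37.3 per kilobase, and its values were 54.5, 68.9, 121 and 143 among controls and 66.4, 50.6, 111 and 50.6 among cKO libraries. As for *Kcnh1*, the 3 high libraries were control 3, control 4 and cKO 3 (log2 fold change -0.44, standard error 0.34, adjusted p = 0.697 by limma). With the enamel transcripts as covariate its log2 fold change was 0.0601, so the sign was not kept. *Kcnk2*, a channel opened by membrane stretch, had values of 26.1, 36.4, 28.1 and 34.96 among controls and 33.6, 18.8, 31.9 and 24.9 among cKO libraries. The groups overlapped, with cKO library 2 the lowest (log2 fold change -0.21, standard error 0.18, adjusted p = 0.736 by limma). *Kcnk6* means were 6.28 ± 0.788 in control and 8.24 ± 1.68 in cKO molars (SD, n = 4 each), and *Kcnk4*, another stretch-sensitive member that overlaps *Catsperz* on the same strand, was not tested, with values under 1 in all libraries.

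Hcn genes encode the hyperpolarization-activated pacemaker channels, and 4 were tested (median log2 fold change 0.27). Levels were low, 0.798 per kilobase for *Hcn2*. It lies on chromosome 10 (plus strand, 79716634 to 79736108) and was called, with values of 1.89, 2.17, 1.70 and 2.22 among controls and 2.81, 3.35, 3.17 and 3.08 among cKO libraries. The lowest cKO library, number 1, was above the highest control, number 4. Means were 1.996 ± 0.243 in control and 3.10 ± 0.227 in cKO molars (SD, n = 4 each, log2 fold change 0.46, standard error 0.10, adjusted p = 0.0481 by limma). Of the 10 calls this was the closest to the threshold. It was lost without each library other than cKO 1 (adjusted p 0.0812 to 0.187 by limma), and it was kept in 4 of the 15 other settings in which *Hcn2* was tested. *Hcn3*, which overlaps *Pklr* on the opposite strand, had means of 2.28 ± 0.319 in control and 2.87 ± 0.287 in cKO molars (SD, n = 4 each) with overlapping groups (log2 fold change 0.24, standard error 0.10, adjusted p = 0.353 by limma). For *Hcn4* the means were 1.07 ± 0.114 in control and 1.16 ± 0.366 in cKO molars (SD, n = 4 each), and cKO library 3 alone, at 1.68, lay above the control range. Without that library the log2 fold change of *Hcn4* was -0.0597.

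**Figure D2:**
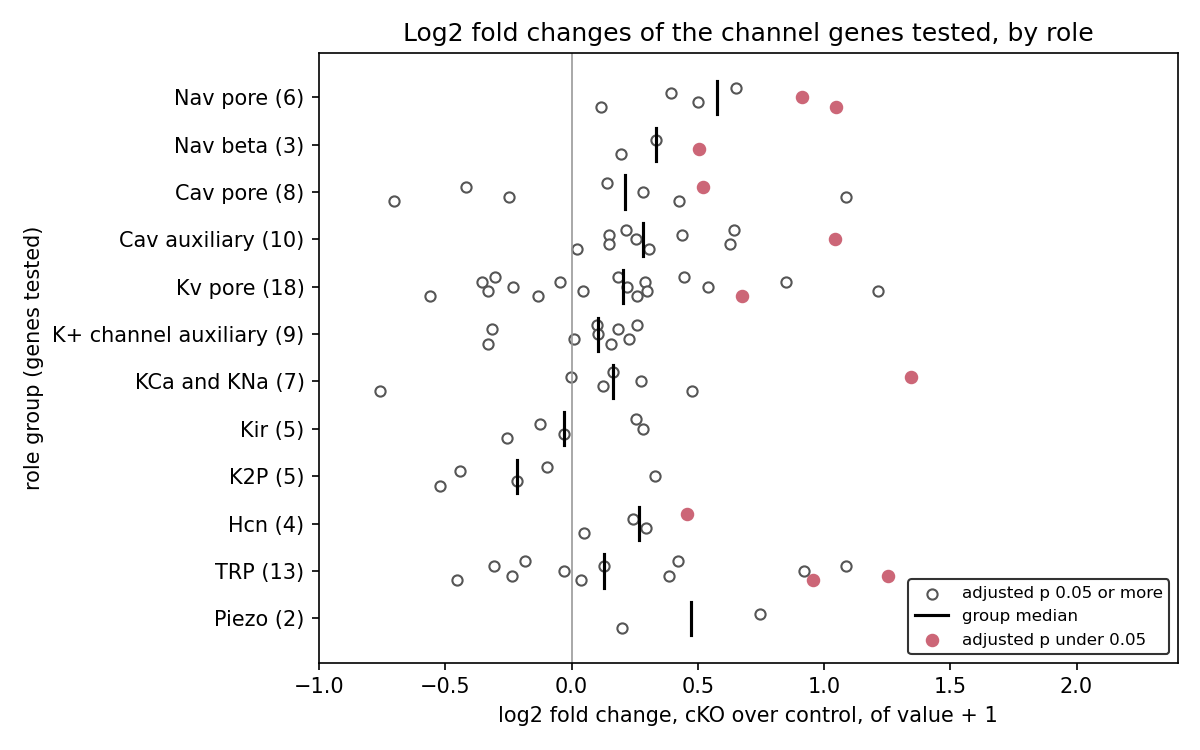
Log2 fold changes (cKO over control, of value + 1) of the 90 channel genes tested, in rows by role group with the number tested in parentheses; each circle is a gene, red where the adjusted p is under 0.05, and black bars are group medians. Medians run from -0.21 for the K2P channels to 0.58 for the sodium channel pores, and the 10 red circles are all to the right of 0.

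Of the 19 TRP channels, 13 were tested, 8 with positive and 5 with negative log2 fold changes (median 0.13; 7 positive under quantile scaling). At an unadjusted p under 0.05, 6 were higher and 3 lower. *Trpm5*, a calcium-activated cation channel of taste cells, had the lowest adjusted p of the 133 genes. It lies on chromosome 7 (minus strand, 143069153 to 143094642) and overlaps *Tssc4* on the opposite strand. Values were 1.69, 2.88, 1.68 and 2.54 among controls and 5.05, 6.93, 7.12 and 7.17 among cKO libraries. Every cKO library was above every control library, and cKO library 1 stood under the other 3, which lay between 6.93 and 7.17. The mean was 2.99-fold higher, on 96 to 214 in control and 265 to 555 in cKO libraries by estimated reads (log2 fold change 1.25, standard error 0.16, adjusted p = 0.00543 by limma). Leaving out each library kept the call, with log2 fold changes of 1.17 to 1.36. The neighbouring *Kcnq1*, 11.7 kilobases away, had a log2 fold change of 0.0469 and was not called (adjusted p = 0.951 by limma).

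*Trpa1*, the receptor for pungent irritants in sensory neurons, lies on chromosome 1 (minus strand, 14872648 to 14918862) with no overlapping gene annotated. Its values were 0.956, 1.41, 0.911 and 1.18 among controls and 3.47, 2.31, 3.44 and 3.23 among cKO libraries. The lowest cKO library, number 2, at 2.31, was above the highest control, number 2, at 1.41. The mean was 2.79-fold higher (log2 fold change 0.96, standard error 0.13, adjusted p = 0.00699 by limma), on 52 to 104 in control and 151 to 249 in cKO libraries by estimated reads. The adjusted p stayed at or under 0.0328 by limma with each library left out. As for *Cacng5*, the call was lost with replicate number as a block in the fit.

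*Trpc1* and *Trpc5* had groups that did not overlap but were not called. *Trpc5*, studied in odontoblasts as a sensor of cold, overlaps *Trpc5os* and *Gm15071* on the opposite strand, and its values were 2.69, 3.11, 1.81 and 2.32 among controls and 3.18, 7.60, 5.22 and 7.14 among cKO libraries. cKO library 1, at 3.18, lay next to the highest control, at 3.11, and the other 3 cKO libraries were well above (log2 fold change 0.92, standard error 0.22, adjusted p = 0.0801 by limma). Without cKO library 1 the adjusted p was 0.0131 by limma, and it ranged up to 0.260 with other libraries left out. *Trpc1* values were 5.73, 5.35, 5.09 and 5.18 among controls and 7.18, 7.55, 8.01 and 6.44 among cKO libraries. Both groups were tight, and the ratio of means was 1.37 (log2 fold change 0.39, standard error 0.0918, adjusted p = 0.0751 by limma; exact permutation p = 0.0286).

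The TRP channels with the highest levels were *Trpm7*, *Trpv4* and *Trpm4*, at 29.01, 21.2 and 2.91 per kilobase. *Trpm7*, a magnesium-permeable channel fused to a kinase, had values of 366, 335, 424 and 382 among controls and 222, 256, 379 and 262 among cKO libraries. cKO libraries 1, 2 and 4 were under all controls, while cKO library 3 was inside the control range, so the groups overlapped (log2 fold change -0.45, standard error 0.15, adjusted p = 0.216 by limma; unadjusted p = 0.0150). Without cKO library 3 limma called it lower, with a log2 fold change of -0.61 and an adjusted p of 0.0267, and the adjusted p reached 0.554 with other libraries left out. *Trpv4*, opened by cell swelling and warmth, had values of 90.8, 76.6, 64.5 and 63.5 among controls and 99.9, 102, 82.8 and 110.05 among cKO libraries. Only cKO library 3 fell within the control range (log2 fold change 0.42, standard error 0.13, adjusted p = 0.158 by limma; exact permutation p = 0.0571). *Trpm4* means were 31.7 ± 0.830 in control and 31.2 ± 3.93 in cKO molars (SD, n = 4 each), a difference under the spread.

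*Trpv2* was the single tested channel gene with all 4 cKO values below all 4 control values. Its values were 4.53, 4.91, 4.50 and 5.17 among controls and 4.44, 3.82, 4.003 and 3.38 among cKO libraries. The gap between the groups was narrow, from 4.44 in cKO library 1 to 4.50 in control library 3, and the difference was not called (log2 fold change -0.24, standard error 0.10, adjusted p = 0.330 by limma).

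Both Piezo genes, pores opened directly by membrane tension, were tested and neither was called by limma, with *Piezo2* at an unadjusted p of 0.00379 and *Piezo1* at 0.0993. *Piezo1* had the higher level, 14.3 per kilobase against 2.55 for *Piezo2*. *Piezo2* values were 31.05, 33.9, 32.8 and 29.2 among controls and 33.4, 68.6, 64.6 and 56.4 among cKO libraries. cKO libraries 2, 3 and 4 were at 56.4 or more, whereas cKO library 1 lay within the control range (log2 fold change 0.75, standard error 0.20, adjusted p = 0.102 by limma; exact permutation p = 0.0571). Without cKO library 1 *Piezo2* was called, with a log2 fold change of 0.97 and an adjusted p of 0.00224 by limma, and over the other libraries left out the adjusted p reached 0.260. *Piezo1*, which overlaps *Ctu2* on the opposite strand, had values of 140.1, 138, 124 and 125 among controls and 123, 177, 165 and 146 among cKO libraries. Here cKO library 1 was just under the controls' range while the other 3 cKO libraries were above it (log2 fold change 0.20, standard error 0.11, adjusted p = 0.509 by limma).

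The filter left out 43 channel genes. Of these, 24 had a higher mean in cKO than in control libraries, 5 had all cKO values above all control values and 2 had them below. Among all 6072 genes left out, 59.7% had a higher mean, 5.06% lay above and 2.34% below. *Kcnh7*, an ERG-type potassium channel gene that overlaps *Gca* and *Gm13569* on the opposite strand, had estimated reads of 3, 6, 4 and 4 among controls and 12, 14, 21 and 21 among cKO libraries. Without the filter it was called (0.0271, adjusted p by limma), as were 9 channel genes in all, beside 1.22% of all 20926 genes called higher. *Kcnj12*, an inward rectifier of heart and skeletal muscle, had estimated reads of 8, 8, 9 and 8 among controls and 16, 52, 33 and 67 among cKO libraries. The controls were nearly equal and each cKO library was higher, with library 1 the lowest of them.

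*Cacng8*, a further AMPA receptor regulator whose gene lies 22.5 kilobases from *Cacng7*, had estimated reads of 32, 25, 17 and 25 among controls and 65, 50, 77 and 177 among cKO libraries. cKO library 4 was the highest by a wide margin. On log2 of the value with neither pseudocount nor filter, a setting chosen after the data were seen, 12 channel genes were called, beside 1.26% of all 20926 genes called higher. In that setting the adjusted p by limma was 0.0198 for *Kcnh7*, 0.0242 for *Kcnj12* and 0.0448 for *Cacng8*. With the filter removed and the pseudocount kept, *Kcnj12* and *Cacng8* had adjusted p-values of 0.0572 and 0.0762 by limma.

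*Kcng3*, a silent potassium channel subunit, had 3 to 9 in control and 8 to 20 in cKO libraries by estimated reads, so its groups were apart as scaled values and overlapped as reads. *Trpm6*, a magnesium channel related to *Trpm7*, likewise had 13 to 21 in control and 16 to 35 in cKO libraries. Neither was called without the filter (adjusted p 0.263 and 0.205 by limma). *Kcne1*, a partner of *Kcnq1*, went the other way, with estimated reads of 3, 3, 48 and 3 among controls and 1, 1, 0 and 1 among cKO libraries. Control library 3 supplied nearly all of its reads, and the other libraries were at or under 3 reads, the smallest amount taken as measurable. *Trpc7*, outside the rule for naming genes and named after its values were seen, was the other gene with lower values throughout, at 9 to 15 in control and 2 to 8 in cKO libraries by estimated reads.

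**Figure D3:**
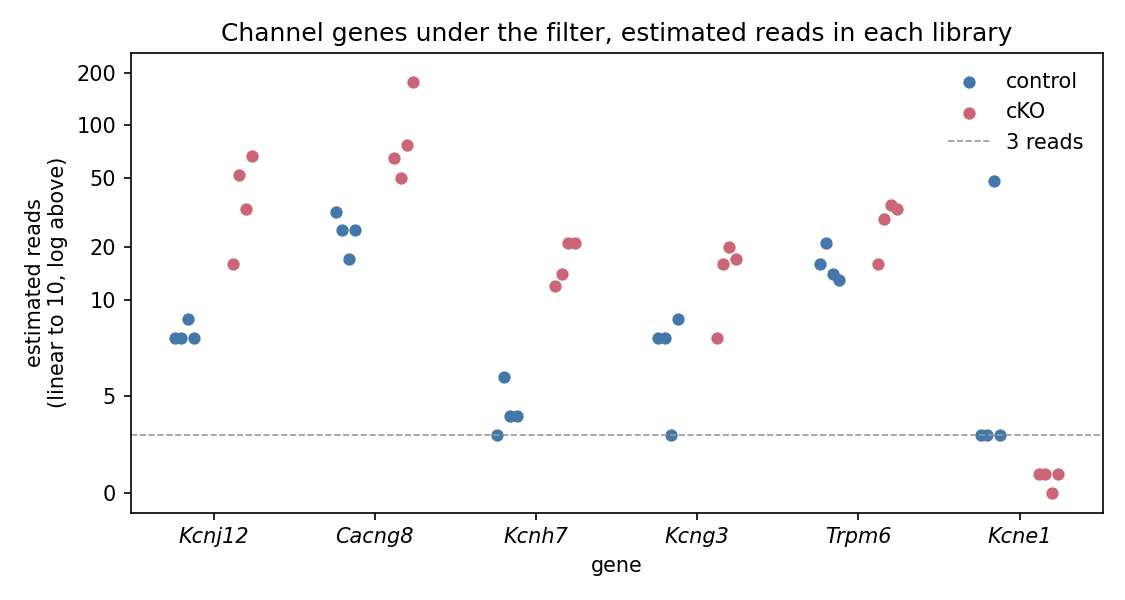
Estimated reads of 6 channel genes left out by the filter, in each of the 4 control (blue) and 4 cKO (red) libraries, on an axis linear to 10 and logarithmic above, with a dashed line at 3 reads. *Kcnj12*, *Cacng8* and *Kcnh7* have every cKO point above every control point, *Kcng3* and *Trpm6* overlap as reads, and *Kcne1* has 48 reads in control library 3 and 0 to 3 in the other 7.

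Other cation channel and calcium handling genes were counted the same way. Of 68 listed, among them Mcoln, Pkd, Asic, P2rx, Orai, Stim, Ryr, Itpr and calcium pump genes, 61 were in the table and 43 were tested. Limma called 0 of them in either direction, with 4 higher and 5 lower at an unadjusted p under 0.05 (beside 8.27% and 4.87% of all genes tested), 17 of 43 positive and a median log2 fold change of -0.0689. Among the 43, 3 had all cKO values above all control values and 2 had them below, beside 5.76% and 2.77% of all genes tested. Those with the lowest unadjusted p in each direction, named after their values were seen, were *Mcoln3*, a lysosomal channel (log2 fold change -0.46, standard error 0.11, adjusted p = 0.0883 by limma), and *Fgf11*, a sodium channel partner (log2 fold change 0.43, standard error 0.11, adjusted p = 0.102 by limma). *Mcoln3* values were 1.60, 2.01, 1.69 and 2.32 among controls and 1.19, 1.17, 0.835 and 1.25 among cKO libraries, and *Fgf11* values were 10.4, 9.21, 8.70 and 7.88 among controls and 11.6, 14.9, 11.3 and 12.6 among cKO libraries. *Dpp10*, a Kv4 partner left out by the filter and also named after its values were seen, had values of 0.191, 0.174, 0.241 and 0.229 among controls and 0.929, 0.728, 2.08 and 1.01 among cKO libraries.

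Promoters were compared because the 10 called genes were all called in the same direction. RefSeq promoters on GRCm38.p6, from 250 bases before to 50 after the start of a gene, were matched by symbol for 97 of the 133 channel genes. The motif CG, which reads the same on both strands, occurred a median of 11 times in them and 7 times in all 32851 promoters of the table, and 54.6% against 43.5% held at least 10. These sets are unlike. For each channel gene only the entry nearest to its gene start was taken, whereas the larger set held every entry, also several of a gene. Some channel entries lay far from the gene start, 239249 bases in *Kcnip4*. Among the called genes 6 matched. CG counts were 5 in *Trpm5*, 11 in *Kcnn3*, 17 in *Cacng5*, 26 in *Hcn2*, 26 in *Scn4b* and 38 in *Scn8a*. The shares of all promoters with as many or more were 62.0% for *Trpm5*, 41.4% for *Kcnn3*, 31.4% for *Cacng5*, 16.9% for *Hcn2* and *Scn4b* and 4.95% for *Scn8a*. The 6 matched genes thus ranged from promoters poorer in CG than the median to promoters among the richest. The RefSeq start of *Scn8a* lay 787 bases from the gene start in the table, and that of *Scn4b* 229 bases.

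The 4 promoters whose RefSeq start lies at the start of the gene in the table, within 1 base, hold 5 to 26 of these motifs, and each is printed 5′ to 3′ on the strand of its gene with every CG in capitals. They lie at chr7:143094593-143094892 (*Trpm5*, minus strand), chr3:89519914-89520213 (*Kcnn3*, plus strand), chr11:107915006-107915305 (*Cacng5*, minus strand) and chr10:79716384-79716683 (*Hcn2*, plus strand) of GRCm38.p6. In *Hcn2* most of the CGs lie toward the gene start.
Trpm5: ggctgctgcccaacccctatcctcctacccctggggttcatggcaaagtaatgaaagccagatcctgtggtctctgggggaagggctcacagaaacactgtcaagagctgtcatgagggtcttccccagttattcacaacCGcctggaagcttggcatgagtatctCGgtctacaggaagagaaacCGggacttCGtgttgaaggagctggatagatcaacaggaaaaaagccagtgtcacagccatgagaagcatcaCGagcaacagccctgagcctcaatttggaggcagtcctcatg
Kcnn3: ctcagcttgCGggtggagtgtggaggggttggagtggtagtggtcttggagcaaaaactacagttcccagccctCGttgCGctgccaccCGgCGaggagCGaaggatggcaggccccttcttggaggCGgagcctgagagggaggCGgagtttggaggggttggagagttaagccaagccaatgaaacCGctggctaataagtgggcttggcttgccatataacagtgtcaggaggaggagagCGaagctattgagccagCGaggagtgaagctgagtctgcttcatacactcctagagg
Cacng5: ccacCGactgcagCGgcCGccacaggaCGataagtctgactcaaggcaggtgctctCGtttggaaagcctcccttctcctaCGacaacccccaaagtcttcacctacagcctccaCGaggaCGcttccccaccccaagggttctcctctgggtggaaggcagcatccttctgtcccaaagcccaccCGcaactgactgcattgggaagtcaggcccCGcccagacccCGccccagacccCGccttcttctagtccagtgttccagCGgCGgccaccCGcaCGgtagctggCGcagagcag
Hcn2: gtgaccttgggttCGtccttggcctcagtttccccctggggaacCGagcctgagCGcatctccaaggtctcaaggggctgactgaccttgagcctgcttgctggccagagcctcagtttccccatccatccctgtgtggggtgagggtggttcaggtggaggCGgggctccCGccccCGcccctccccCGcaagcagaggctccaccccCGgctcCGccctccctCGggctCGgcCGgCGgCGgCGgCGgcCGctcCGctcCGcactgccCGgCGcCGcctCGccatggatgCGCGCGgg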

How the data were processed

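RNA-seq of molar mesenchyme was analysed in 8 libraries. Groups came from the sample labels, each column was matched to a sample title, and 0 other sample columns were present. The study's methods name TopHat and RPKM, while the submitters' processing notes list STAR 2.5.3a, Partek and CASAVA 1.8.2, with mm10 as the build. The values the authors deposited were treated as a signal, because they carry no length factor, and below 20 estimated reads 58.9% to 64.4% of them were whole reads (within 0.02), too few for a count test. The 75th percentile was 38.455 to 38.463 in every library.

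limma 3.58.1 in R 4.3.3 (eBayes with trend) tested log2(value + 1). Exact permutation tests used the 70 arrangements of 8 libraries, with a smallest p of 0.0286. Tables and plots were made with Python 3.11.15, pandas 2.3.3 and matplotlib 3.10.9. Coordinates, exon lengths and overlaps are from GENCODE vM21 on GRCm38, the same build as mm10, where all 133 symbols matched and 125 had the start given in the table.

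Members and lists were chosen with earlier results of these data known. Named genes were those with an adjusted p under 0.05, those with an unadjusted p under 0.05 and groups apart, the 3 highest per length in each role group, 6 filtered genes with groups apart, at least 20 reads in a library and the largest ratios, and genes known from teeth or from mechanical and thermal sensing. *Trpm8* and *Trpv1* were on that list and had no row here. Genes outside this rule (*Cacna1b*, *Cacna1e*, *Dpp10*, *Fgf11*, *Kcnd3*, *Kcnn4*, *Kcnq1*, *Mcoln3*, *Scn1a*, *Scn3a*, *Scn7a* and *Trpc7*) were named after their values were seen. Some genes within it are not reported here. Alternatives were other pseudocounts, filters, scalings and moderation, covariates, a replicate block and each library left out, and 3 more were chosen after the data were seen.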

Additional observations from a re-analysis of the deposited data

Results flagged for a closer look

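Single libraries stood apart from the other 3 of their group, by a gap beyond Dixon's critical value for 4 samples on the log2(value + 1) scale, in 9 of the 108 groups examined. Chance alone gives about 1 in 20, or 5.4. In control libraries these were *Kcnn3* in control 2 (3.14 against 2.30 to 2.42 in the others), *Kcne3* in control 1 (6.13 against 7.26 to 7.46), *Kcne1* in control 3 (0.843 against 0.0536 to 0.0695), *Kcnk4* in control 4 (0.291 against 0.585 to 0.608) and *Ezh2* in control 1 (54.95 against 38.3 to 39.6). In cKO libraries they were *Trpm5* in cKO 1 (5.05 against 6.93 to 7.17), *Kcnf1* in cKO 1 (23.4 against 14.8 to 16.02), *Scn9a* in cKO 1 (3.21 against 11.2 to 13.1) and *Cacng4* in cKO 3 (27.5 against 42.5 to 44.8). Of the 9, 3 fell in cKO library 1, which was nearer to the controls for *Trpm5*, inside their range for *Kcnf1* and below it for *Scn9a*.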

How the results depend on the processing

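Channel genes that met the naming rule and *Ezh2* kept their direction and their side of the threshold in 993 of 1081 comparisons with other settings. Of these settings, 3 were chosen after the data were seen. In the other comparisons 58 calls were lost, 8 were gained and 22 differences changed sign, 0 of these changes of sign in the 10 called genes. Only 10 of the 45 channel genes compared were called in the main fit, so most of the 993 were uncalled genes that stayed uncalled. All 58 lost calls were among those 10, of which 5 stayed called with each library left out. The genes left out by the filter had low values, and the pseudocount shrinks their fold changes. The 10 calls rest on 4 libraries a group.

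With each library left out, channel genes called ranged over 5 to 17 higher and 0 to 2 lower, those past an unadjusted p over 21 to 37 and 4 to 11, their median log2 fold change over 0.173 to 0.245, all genes called over 108 to 332 and 21 to 97, and other cation channel genes stayed at 0 higher in each case and ranged over 0 to 1 lower. The extremes were 5 without control 3 or 4 and 17 without cKO 1 for channel genes called higher, and 108 without control 3 and 332 without cKO 1 for all genes. The filter at 10, which tested fewer genes, gave 1 channel gene called, 8 higher and 1 lower past an unadjusted p, and 88 and 31 of all 10283 genes called. The muscle covariate gave 5 called, 20 higher past an unadjusted p, and 104 and 39 of all genes. The 5 libraries with low enamel transcripts gave 0 called, 14 higher past an unadjusted p, and 8 and 0 of all genes. That setting changed the number of libraries and the enamel transcripts together, and these cannot be told apart. The nerve covariate added 1 channel gene and 1 other cation channel gene called lower, with 244 of all genes called higher and 87 lower. The neuron covariate added 1 channel gene lower and 1 other cation channel gene higher, and with it 130 of all genes were called lower, against 76 without it. Without a filter, 1 other cation channel gene was called higher and the median over channel genes was 0.125. With neither filter nor pseudocount, 1 was called higher and 13 channel genes were lower past an unadjusted p. A pseudocount of 5 gave a median of 0.118. The cause of the changes under the covariates was not tested.

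The values gave no sign that replicate numbers pair the samples, although the methods mention 3 pairs. Libraries of the same number deviated from their groups with correlations, across genes, of -0.34, -0.08, 0.22 and -0.43, and among controls only library 3 correlated best with its own number. With the replicate block, 2 of the 10 channel genes stayed called (*Scn8a* and *Trpm5*), 5 channel genes were lower past an unadjusted p, and 64 higher and 9 lower of all genes were called.

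Changes of sign were in uncalled genes. With the enamel covariate log2 fold changes were 0.0601 for *Kcnk1*, 0.34 for *Kcnj2*, 0.16 for *Kcnh1* and -0.00796 for *Scn2b*. With the low-enamel libraries they were -0.0877 for *Hcn4* and 0.0217 for *Trpm4*. *Kcnn2* had 0.0206, 0.0248 and 0.0308 with the *Xist*, muscle and nerve covariates, and *Kcnj2* had 0.0721 with the neuron covariate. With each library left out, *Hcn4* ranged over -0.0597 to 0.12, *Kcne3* over -0.01005 to 0.19, *Kcnn2* over -0.11 to 0.14, *Kcnj8* over -0.0815 to 0.0672, *Kcnj2* over -0.42 to 0.13 and *Trpm4* over -0.10 to 0.0437.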

Other observations

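*Xist* and the Y-linked *Ddx3y* were both present in control libraries 1, 3 and 4 and in cKO library 4. *Xist* values were 518, 0.373, 767 and 669 among controls and 0.414, 1955, 2648 and 401 among cKO libraries. *Ddx3y* values were 46.4, 82.6, 43.5 and 31.2 among controls and 72.98, 0.0455, 0.0424 and 56.9 among cKO libraries. Control library 2 and cKO library 1 had *Ddx3y* with almost no *Xist*, and cKO libraries 2 and 3 had *Xist* with almost no *Ddx3y*. With log2 *Xist* as a covariate, 9 channel genes were called higher by limma and 0 lower, all 9 among the 10 called without it. Of all genes tested, 194 were called higher and 60 lower with this covariate.

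Several uncalled channel genes had the same highest control library and the same lowest cKO library. *Kcnd3*, a Kv4 pore named after its values were seen, had values of 8.95, 6.22, 5.004 and 5.03 among controls and 8.06, 17.99, 17.6 and 22.6 among cKO libraries. Control library 1 was the highest control and cKO library 1 the lowest cKO library, as for *Scn9a*, *Cacna1c*, *Cacna1h* and *Kcnt2*. The difference in *Kcnd3* was not called with all 8 libraries (log2 fold change 1.22, standard error 0.28, adjusted p = 0.0720 by limma) and was called without cKO library 1 (adjusted p = 0.00776 by limma).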
